A study of Homo sapiens with 12 samples.

Results

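The comparison described here sets A375 cells exposed to 6-thio-dG at 5 µM against A375 cells given the control treatment. A375 is an established human melanoma line with an activating BRAF mutation. 6-thio-dG is a nucleoside analog, the deoxy form of thioguanosine, which telomerase can insert into telomeric DNA. Each group held 2 biological replicates, so 4 of the 12 libraries of the series enter the comparison. The other 8 were A375 with BIBR1532, a telomerase inhibitor, at 25 µM, and the LOX-IMVI BR melanoma line under the same treatments. All were unstranded total RNA libraries of cells seeded at 25000 per well in 6-well plates. How long cells were exposed, and what the control treatment contained, is not given in the sources used here. Each p-value below measures the spread between libraries called biological replicates, with no record of separate days or passages.

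Cells answer damaged proteins, oxidants and lack of amino acids through a few transcription factors. HSF1 drives the cytosolic heat shock chaperones. NRF2 drives glutathione, heme and iron genes. The unfolded protein response, through ATF6 and XBP1, drives the folding proteins of the endoplasmic reticulum, and ATF4 drives amino acid synthesis and the enzymes that charge transfer RNAs. These programmes, with adhesion, cytokine, channel and pigment genes, make up many of the lists described below. Genes of replication, mitosis and histones were set aside and are given only as counts.

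The control libraries held 25822381 and 14817553 counts, and the 6-thio-dG libraries held 11813388 and 12151180. Levels are CPM, counts scaled to a common library size, after TMM scaling, with replicate 1 named before replicate 2. Genes were tested with edgeR's quasi-likelihood test, with the spread taken from the 6 A375 libraries, and genes with a p under 0.05 after Benjamini-Hochberg adjustment were called. Each adjusted p below comes from this test unless another is named. The shared spread was 36.1% over the 6 A375 libraries and 44.5% over the 4 libraries compared. The p-values of the main test may thus be too small for this comparison. Log2 fold changes are 6-thio-dG over control, ± SE of the fit. The replicates of both groups lay far apart: the median absolute log2 difference between them over 24026 genes was 0.63 in the control and 0.65 with 6-thio-dG, against 0.19 with BIBR1532. On simulated counts the test recovered 1% of genes changed 2-fold and 17% of genes changed 4-fold, so a gene that was not called may still have changed. The cells carried the melanoma markers SOX10, CSPG4 and MCAM, with SOX10 at 524 and 582 CPM in the controls. The pigment genes MLANA, TYR, TYRP1 and DCT were between 0 and 0.63 CPM there, with TYR at 0 in both, so the label is borne by the former markers and not by pigment genes. In bulk RNA a smaller share of cells that express a gene and less RNA of it per cell cannot be told apart.

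Of 36 tested cytosolic chaperone genes 6 rose, while 4 of 21 endoplasmic reticulum genes and 6 of 18 ATF4 targets fell. A few of their promoters, all of called genes that hold a match, are shown because the factors named above have known recognition motifs. Each is the 250 bases before the RefSeq transcription start, from GRCh38.p14, printed 5′ to 3′ on the gene's strand with the motif in capitals. HSPA8 encodes the constitutive cytosolic HSP70. Its window, chr11:123062137-123062386 on the minus strand, holds the heat shock element at 2 places, which begin 230 and 55 bases before the start. HSPA5 encodes BiP, the main HSP70 of the endoplasmic reticulum, and XBP1 encodes a transcription factor of the unfolded protein response. Both windows, chr9:125241344-125241593 and chr22:28800570-28800819 on the minus strand, hold the endoplasmic reticulum stress element, at 66 and 52 bases before the start. ASNS encodes asparagine synthetase. Its window, chr7:97872409-97872658 on the minus strand, holds the ATF4 site TGATGNAA, which begins 68 bases before the start.
HSPA8: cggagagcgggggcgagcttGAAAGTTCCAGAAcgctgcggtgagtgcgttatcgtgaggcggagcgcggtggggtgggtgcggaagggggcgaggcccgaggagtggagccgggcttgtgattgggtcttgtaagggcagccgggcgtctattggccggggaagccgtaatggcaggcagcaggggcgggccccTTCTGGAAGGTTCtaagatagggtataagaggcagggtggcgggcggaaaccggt
HSPA5: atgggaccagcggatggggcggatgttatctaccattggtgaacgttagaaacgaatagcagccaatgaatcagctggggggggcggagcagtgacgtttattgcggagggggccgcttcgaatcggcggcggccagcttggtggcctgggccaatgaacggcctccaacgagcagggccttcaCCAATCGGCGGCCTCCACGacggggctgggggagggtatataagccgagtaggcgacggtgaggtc
XBP1: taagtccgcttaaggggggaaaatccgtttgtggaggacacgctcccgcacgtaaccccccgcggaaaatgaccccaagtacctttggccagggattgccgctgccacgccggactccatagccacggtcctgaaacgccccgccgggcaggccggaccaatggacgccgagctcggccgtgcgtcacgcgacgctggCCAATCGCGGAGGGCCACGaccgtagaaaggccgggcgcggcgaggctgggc
ASNS: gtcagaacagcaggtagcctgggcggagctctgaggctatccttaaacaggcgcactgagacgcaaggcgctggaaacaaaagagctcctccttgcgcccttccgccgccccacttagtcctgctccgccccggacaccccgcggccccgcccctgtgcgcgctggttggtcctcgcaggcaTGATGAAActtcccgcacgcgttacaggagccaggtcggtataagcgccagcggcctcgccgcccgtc
Both strands were searched, and a match is a description of the letters, not of binding. Of 35116 windows of this length in the RefSeq table, 0.441% held the heat shock element, 0.074% the endoplasmic reticulum stress element, 3.14% the ATF4 site and 10.9% the antioxidant response element TGACNNNGC that NRF2 recognises. Among the cytosolic chaperones the heat shock element was found in 4 of 31 windows: CHORDC1, DNAJB6, HSPA6 and HSPA8. Among the endoplasmic reticulum genes the stress element was found in 6 of 21 windows: CALR, CANX, CRELD2, HSP90B1, HSPA5 and XBP1. The ATF4 site was found in 3 of 17 windows of ATF4 targets, those of ASNS, ATF3 and CHAC1, and in 2 of 13 of the transfer RNA synthetase genes. The antioxidant response element was found in 3 of 22 windows of the NRF2 list (13.6%), those of GCLM, GSTP1 and TXNRD1. Of the genes named with a match, CHORDC1, DNAJB6, HSPA6, CALR, CANX, CRELD2, ATF3, CHAC1, GSTP1 and TXNRD1 were not called. Called members such as HSPA1A, HYOU1 and CBS were not among those with a match, and some members had no window.

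The comparison asked how gene expression in A375 changed with 6-thio-dG. Of 24026 genes tested, 741 rose (3.08%) and 486 fell (2.02%). Of the 13595 tested genes that carry symbols, 333 rose (2.45%) and 381 fell (2.8%), and these shares are the background for each list below. For every called gene both 6-thio-dG libraries lay on the same side of both controls. The calls rest on the same values, so this separation adds no support to them. The share of separated genes among all genes tested is not given here. The median log2 fold change was −0.01 over all genes and −0.25 over the symbol-named genes. Upper-quartile scaling moved the median of all genes by 0.32 and the share of rises among the calls from 60.4% to 78.5%. DESeq2 moved this share to 47.1%, and with no filter on low counts it was 37.7%.

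The mitosis list had 19 of 104 tested genes lower and 0 higher, the replication list 1 of 103 lower, and the clustered histones 1 of 31 higher. After the GC correction described below, 46 mitosis genes were lower, 4 replication genes were higher and 12 lower, and 4 histone genes were higher and 2 lower. Of the 67 other lists, 65 had at least 5 tested members, and 14 of these had no called member. These lists were chosen with earlier results of the same libraries known, so they are not independent evidence of a direction. Each of the 128 called genes that the naming rule chose was also called by DESeq2. With edgeR, leaving out either control left 1 control library, assumed to vary like the other groups, and then no gene was called: 0 without control replicate 1 (6313 genes at an unadjusted p under 0.05, and 427 higher and 667 lower by DESeq2) and 0 without control replicate 2 (4978, and 333 and 452 by DESeq2).

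The 6-thio-dG libraries went opposite ways along the GC content of transcripts, and this touches each list below. Among genes with a known GC content, the median log2 deviation from the mean of the 6 A375 libraries was taken in each eighth of genes by GC. In the eighth lowest in GC it was −1.34 in 6-thio-dG replicate 1 and 0.67 in replicate 2. The controls were at 0.72 and 0.79 there. In the eighth richest in GC it was 0.42 and −0.35 in the 6-thio-dG libraries, and −0.26 and −0.01 in the controls. So 6-thio-dG replicate 1 alone among these 4 libraries was low for AT-rich transcripts, and replicate 2 followed the controls. Removing a smooth GC trend from each library brought the median difference between the 6-thio-dG replicates, over 13282 genes, from 0.73 to 0.30, and that between the controls from 0.55 to 0.49. After this correction 934 of these genes rose (7.03%) and 991 fell (7.46%), against 399 and 224 of the same genes without it. Where a list is described below, its counts after this correction follow its main counts.

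**Figure D1:**
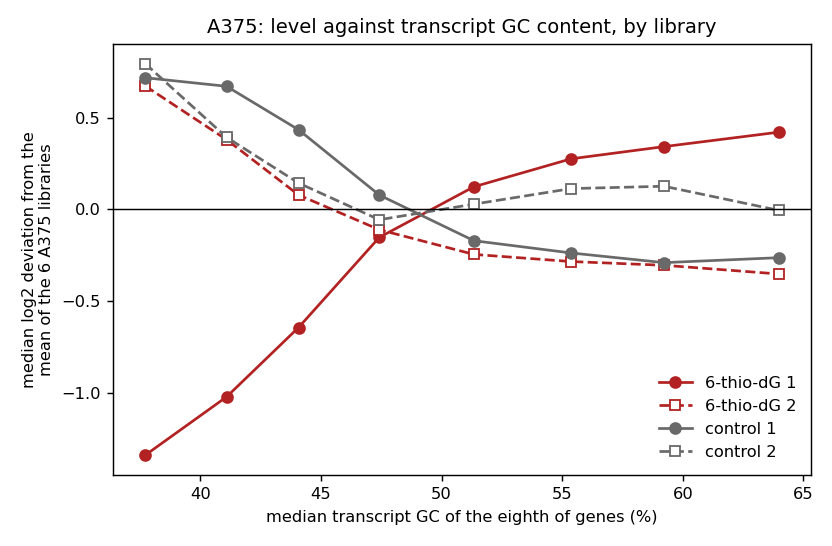
Median log2 deviation of each library from the mean of the 6 A375 libraries (vertical axis) in 8 classes of genes by transcript GC content (horizontal axis, %). 6-thio-dG replicate 1 rises from −1.34 to 0.42 across the classes, while 6-thio-dG replicate 2 and both controls fall.

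At the level of lists, 18 of the 65 had medians of opposite sign in the 6-thio-dG replicates. The 463 zinc finger genes named ZNF, which are poor in GC (median 43.3%), had a median log2 difference from the control mean of −0.65 in replicate 1 and 0.17 in replicate 2. The iron handling genes were at −0.72 and 0.26. The AP-1 and EGR genes, at 55.0% GC, were at 0.02 and −0.75. Of the 18 lists, 3 were lower in replicate 1, with a median GC of at most 46.3%, and 15 were higher there, with a median GC of at least 45.5%. No direction was read for these lists as a whole. The ATF4 targets, the transfer RNA synthetases, the endoplasmic reticulum chaperones and the integrins had negative medians in both replicates, and the cytosolic chaperones had positive ones. The median log2 fold changes of these 5 lists kept their sign with upper-quartile factors and with DESeq2 size factors.

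**Figure D2:**
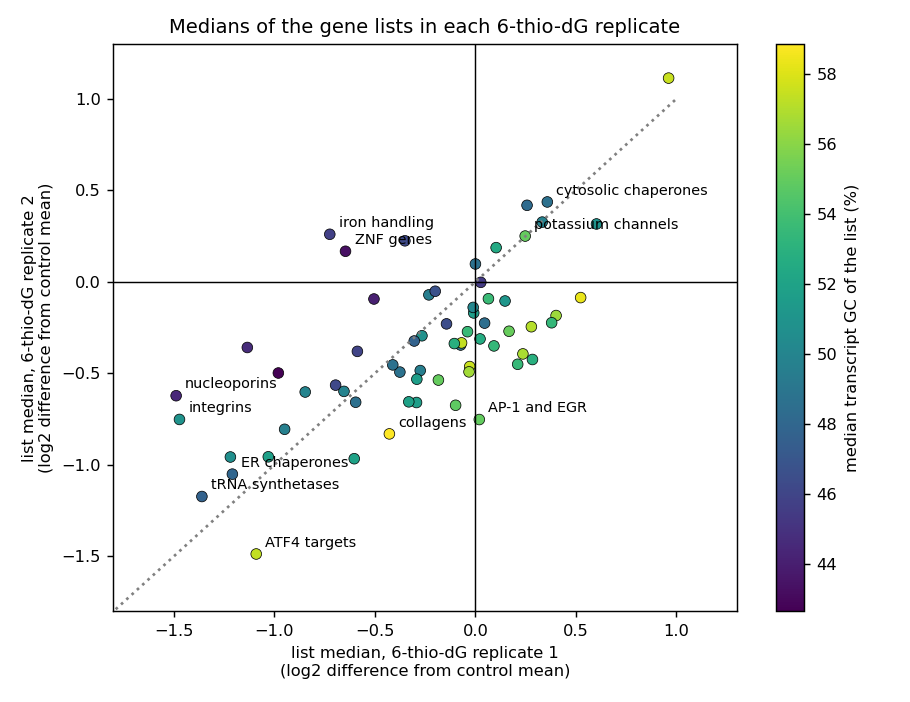
Median log2 difference from the control mean in 6-thio-dG replicate 1 (horizontal) and replicate 2 (vertical), 1 point for each of the 65 gene lists, coloured by the list's median transcript GC content. The ATF4 targets, transfer RNA synthetases and endoplasmic reticulum chaperones sit in the lower left, and the ZNF genes and iron handling genes in the upper left, where the replicates disagree in sign.

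Cytosolic chaperones rose in 6 of 36 tested members and fell in 0. The stress-inducible HSP70 gene HSPA1A was at 7.42 and 12.1 CPM in control cells and at 228 and 170 CPM with 6-thio-dG (log2 fold change 4.36 ± 0.48, adjusted p = 0.00217). Its near-identical neighbour HSPA1B, which shares reads with it, was at 8.03 and 11.3 against 177 and 125 CPM (3.97 ± 0.47, adjusted p = 0.00263). HSPA8 was at 708 and 972 against 5044 and 5357 CPM (2.63 ± 0.45, adjusted p = 0.0124). In all of them both treated libraries stood far above both controls and close to each other. The other called members were HSPA1L and HSPA2, further HSP70 genes, and PTGES3, the HSP90 cochaperone p23. The list median was 0.27, at 0.36 in replicate 1 and 0.44 in replicate 2, and after GC correction 11 members rose and 0 fell. HSP90AA1, the inducible HSP90 gene, named after its values were seen, was not called. It was at 328 and 622 CPM in control cells and at 216 and 2368 CPM with 6-thio-dG, so its treated libraries lay on opposite sides of both controls. HSF1 itself was at 92.5 and 91.5 against 90.6 and 50.2 CPM (adjusted p = 0.611). Leaving out 6-thio-dG replicate 1 gave HSPA8 an adjusted p of 0.04 and HSPA1A one of 0.00519.

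Endoplasmic reticulum chaperones went the other way, with 0 of 21 tested members higher and 4 lower: HSPA5, HSP90B1, HYOU1 and XBP1. HSPA5 was at 3116 and 3496 CPM in control cells and at 916 and 958 CPM with 6-thio-dG (−1.82 ± 0.43, adjusted p = 0.0343). The folding factor gene HYOU1 was at 1163 and 1942 against 392 and 267 CPM (−2.24 ± 0.46, adjusted p = 0.0216). XBP1 was at 335 and 536 against 155 and 115 CPM (−1.69 ± 0.43, adjusted p = 0.0423). For each of these the highest treated library was below the lower control. The list median was −1.37, with −1.21 and −1.05 in the replicates, and after GC correction 9 members fell and 0 rose. HSPA5 and XBP1 were not called with upper-quartile scaling (adjusted p = 0.063 and 0.0732), and without 6-thio-dG replicate 1 none of the 3 was (0.156, 0.0707 and 0.103). XBP1 was also lost without 6-thio-dG replicate 2 (0.0639). Other chaperone lists also had negative medians. Of 12 TRiC chaperonin and prefoldin genes, listed apart from the cytosolic chaperones above, 1 fell, PFDN2, and 2 after GC correction. Their median was −0.74, with 10 below 0. Of 13 mitochondrial chaperone and protease genes edgeR called 0 (6 at an unadjusted p under 0.05, 2 lower by DESeq2), and 4 fell after GC correction. Their median was −0.93, with 11 below 0.

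ATF4 targets of amino acid stress were lower in 6 of 18 tested members and higher in 0. ASNS, which makes asparagine, was at 624 and 1323 CPM in control cells and at 147 and 150 CPM with 6-thio-dG (−2.71 ± 0.48, adjusted p = 0.0139). The transsulfuration enzyme gene CBS was at 106 and 222 against 26.1 and 19.0 CPM (−2.86 ± 0.47, adjusted p = 0.0108). The secreted glycoprotein gene STC2 was at 180 and 173 against 35.2 and 30.0 CPM (−2.44 ± 0.40, adjusted p = 0.0106). The controls differed among themselves, with replicate 2 the higher for ASNS and CBS, and the treated pairs lay below both. TRIB3, a pseudokinase that restrains AKT, PCK2, the mitochondrial PEP carboxykinase, and PPP1R15A, a phosphatase subunit that reverses the translation block, were the other members called. ATF4 itself was at 1205 and 2309 against 1557 and 1123 CPM (adjusted p = 0.639), and DDIT3, which encodes CHOP, at 370 and 524 against 195 and 231 CPM (adjusted p = 0.139). The list median was −1.31, at −1.09 and −1.49 in the replicates, and 11 of 18 fell after GC correction. ASNS was not called without 6-thio-dG replicate 1 (adjusted p = 0.0708).

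Of 20 aminoacyl-tRNA synthetase genes 4 fell and 0 rose: FARSB, IARS, LARS and WARS, which charge transfer RNAs with phenylalanine, isoleucine, leucine and tryptophan. FARSB was at 70.0 and 84.8 CPM in control cells and at 7.46 and 17.6 CPM with 6-thio-dG (−2.62 ± 0.53, adjusted p = 0.0204). IARS was at 425 and 274 against 56.7 and 115 CPM (−2.03 ± 0.47, adjusted p = 0.0336). The synthetase median was −1.38, at −1.36 and −1.17 in the replicates, and 9 of 20 fell after GC correction. Of 10 serine and one-carbon genes 3 fell. ALDH1L2, a mitochondrial folate enzyme, was at 185 and 85.2 against 6.95 and 19.0 CPM (−3.38 ± 0.59, adjusted p = 0.014). PHGDH, the first enzyme of serine synthesis, was at 323 and 851 against 168 and 135 CPM (−1.96 ± 0.49, adjusted p = 0.0424). MTHFD1L, a further folate enzyme, was the other. The list median was −1.19, and 4 members fell after GC correction. Of 14 amino acid transporters edgeR called 0 (6 at an unadjusted p under 0.05, 1 lower by DESeq2), with a median of −0.98, and 4 fell after GC correction. Of 6 polyamine genes 1 fell, and 2 after GC correction. That gene, ODC1, which makes putrescine, was at 346 and 635 against 127 and 96.3 CPM (−2.14 ± 0.45, adjusted p = 0.0228). Without 6-thio-dG replicate 1 the calls of IARS (adjusted p = 0.145), LARS (0.138), PHGDH (0.131) and ODC1 (0.073) were lost, and PHGDH was lost without 6-thio-dG replicate 2 (0.071).

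**Figure D3:**
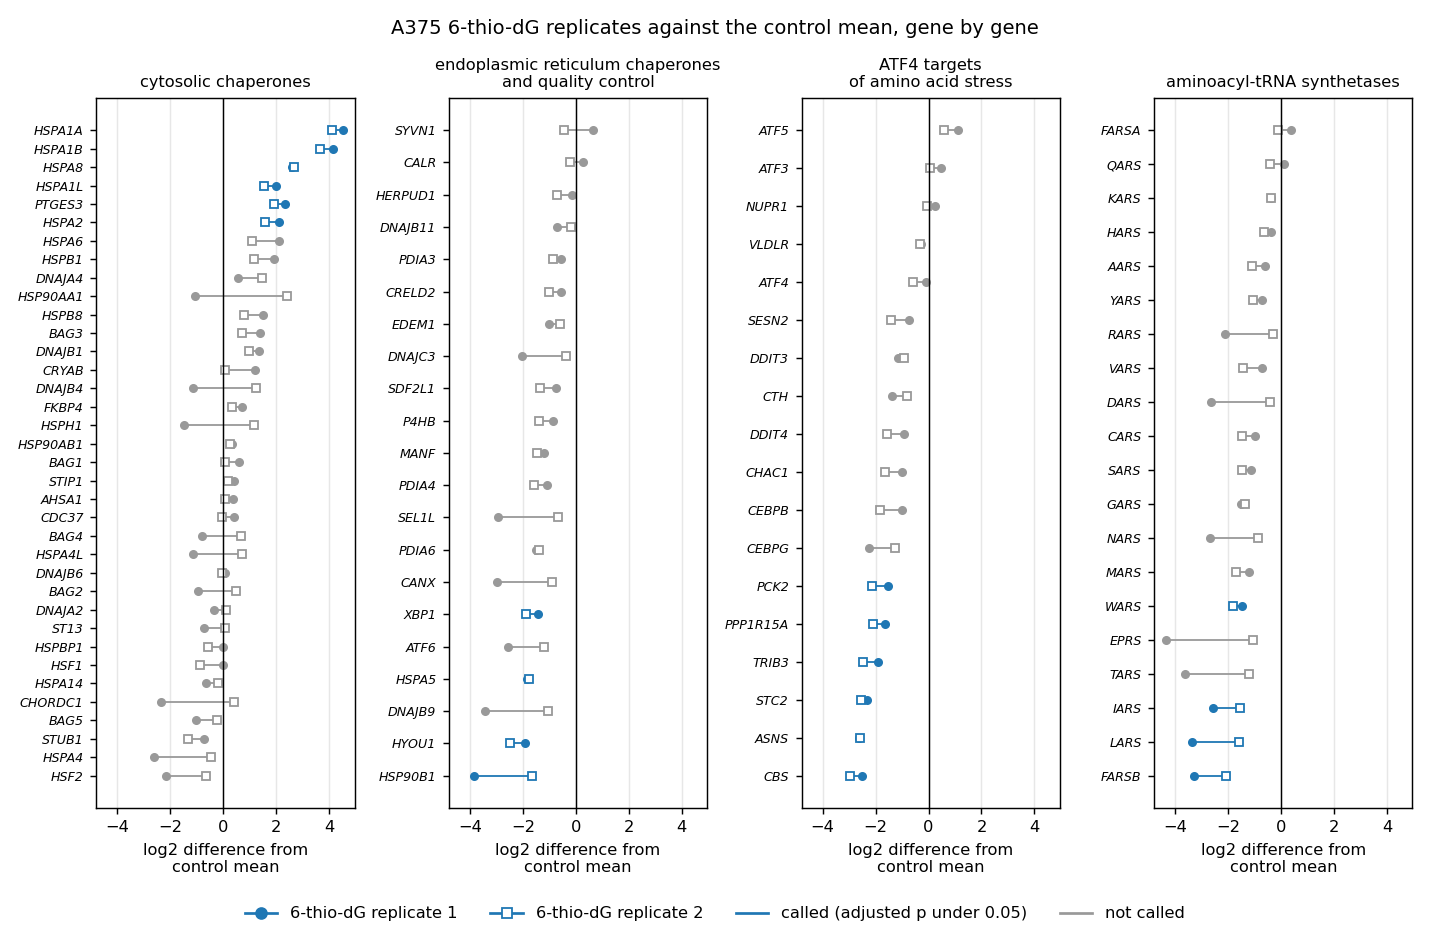
Log2 difference of each 6-thio-dG replicate from the control mean (horizontal axis), 1 row for each tested gene of 4 lists, with filled circles for replicate 1, open squares for replicate 2 and called genes in blue. HSPA1A, HSPA1B and HSPA8 stand to the right, the called genes of the other lists to the left, and members such as HSP90AA1 have replicates on either side of 0.

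NRF2 targets and the glutathione and thioredoxin genes rose in 6 of 28 tested members and fell in 0. HMOX1, which breaks down heme, was at 7.23 and 13.4 CPM in control cells and at 93.2 and 81.8 CPM with 6-thio-dG (3.09 ± 0.49, adjusted p = 0.00824). GCLM, a subunit of the rate-limiting enzyme of glutathione synthesis, was at 7.27 and 7.86 against 28.9 and 64.5 CPM (2.63 ± 0.53, adjusted p = 0.0204). AKR1B10, an aldo-keto reductase, was at 0.0765 and 0.268 against 2.80 and 2.77 CPM (4.22 ± 0.68, adjusted p = 0.00922). OSGIN1, AKR1C3 and the peroxiredoxin gene PRDX1 were the other called members. Of 13 iron handling genes 2 rose, HMOX1 and FTH1, and after GC correction 3 rose and 1 fell. The ferritin heavy chain gene FTH1, which has processed copies that can share its reads, was at 587 and 640 against 3185 and 1825 CPM (2.03 ± 0.45, adjusted p = 0.0281). The NRF2 list median was only 0.18, and 9 members rose and 1 fell after GC correction. NFE2L2, the gene of NRF2, was at 81.8 and 97.3 CPM in control cells and at 18.5 and 103 CPM with 6-thio-dG (adjusted p = 0.622), so only replicate 1 lay below the controls. SQSTM1, a selective autophagy receptor, was at 1309.7 and 2929 against 6572 and 4697 CPM and was not called (adjusted p = 0.12), although it was after GC correction (0.0417). FTH1 was not called without 6-thio-dG replicate 1 (0.135) or with only the 4 libraries compared (0.0666).

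Many of the largest rises were genes near silent in the control. The naming rule favours such genes, as it ranks by fold change and asks for 5 CPM in the higher group alone. GCNT3, which builds branched O-glycans, had no count in either control and was at 6.36 and 7.40 CPM with 6-thio-dG, at least 86.3-fold higher when 3 counts are set over both controls. ALPP, placental alkaline phosphatase, was at 0.268 CPM in each control and at 70.7 and 34.9 CPM with 6-thio-dG (7.59 ± 0.73, adjusted p = 0.00154). Reads of its close paralog ALPPL2 may be split between the pair. TREM2, a lipid receptor best known on microglia and macrophages, had 3 and 0 counts in the controls, so its ratio of 97.7 has a 95% counting interval of 33.0 to 478. Its treated libraries were at 10.1 and 6.02 CPM. ZNF114 was at 0.229 and 0.268 against 12.9 and 12.9 CPM (5.69 ± 0.62, adjusted p = 0.00217). The other largest rises included C11orf86, TRIM54, a muscle ubiquitin ligase, NPC1L1, the intestinal cholesterol importer, and KCNK3, a leak potassium channel. KCNK3 was at 0.612 and 1.16 against 15.2 and 11.1 CPM (3.94 ± 0.56, adjusted p = 0.00599).

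Other rises belonged to tissue-restricted gene clusters. The cornified envelope genes LCE1B and LCE1F, normally of the outer epidermis, were at 0.153 and 0.268 against 5.94 and 4.77 CPM (4.73 ± 0.61, adjusted p = 0.00376) and at 0.421 and 0.446 against 9.92 and 7.54 CPM (4.32 ± 0.56, adjusted p = 0.00376). LCE1C and LCE1E, named after their values were seen, were also called (adjusted p = 0.00377 and 0.0075), while LCE1D stayed between 0.0765 and 0.138 CPM in the 4 libraries. The LCE1 genes are close copies and can share reads. ZSCAN4, a zinc finger gene of early embryos that acts on telomeres, was at 0.153 and 0.357 against 2.97 and 7.82 CPM (4.52 ± 0.72, adjusted p = 0.00922). PRAMEF12, of a germline gene family with many copies, was at 0.497 and 0.625 against 12.6 and 5.26 CPM (adjusted p = 0.00812). The 22 tested cancer-testis genes had 0 calls by edgeR in either direction (1 at an unadjusted p under 0.05, 1 lower by DESeq2), and 0 after GC correction. Of 463 ZNF genes 2 rose and 0 fell, against 23 and 4 after GC correction and 15 and 3 with upper-quartile factors. The 8 keratinocyte markers summed to 201 and 328 CPM in control cells and to 242 and 151 CPM with 6-thio-dG, and most of that sum was KRT10, at 179 and 298 against 189 and 116 CPM. The epidermal genes SFN and IVL were above both controls, SFN at 3.63 and 8.39 against 25.8 and 16.1 CPM (adjusted p = 0.0734) and IVL at 0.115 and 0.179 against 0.339 and 0.484 CPM. TP63 was at most 0.339 CPM in any library, and DSG3 was at 0 in both treated libraries. Of the 5 tested keratinocyte markers 0 were called, and 1 was called higher after GC correction, with upper-quartile factors and by DESeq2. The part of keratinocyte-like cells in the LCE1 rises was not tested.

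Leukocyte and endothelial markers moved with the treatment at low levels. The 8 leukocyte markers summed to 1.68 and 1.70 CPM in control cells and to 5.51 and 7.19 CPM with 6-thio-dG, of which LYZ, the lysozyme gene, made 3.73 and 6.09 CPM (2.40 ± 0.51, adjusted p = 0.0244). PTPRC, the pan-leukocyte marker, was at most 0.179 CPM in the 4 libraries, and 5 or 6 of the 8 markers had a count in each. The 8 endothelial markers summed to 10.6 and 5.54 against 19.5 and 19.6 CPM, with 0 of 5 tested members called by edgeR's main test or by DESeq2 (4 at an unadjusted p under 0.05), 4 higher with upper-quartile factors or all 12 libraries, 1 higher after GC correction, and CDH5 at 0 in both treated libraries. The 8 fibroblast markers summed to 13.7 and 16.1 against 17.6 and 17.2 CPM. Within them LUM, a matrix proteoglycan, rose from 0.268 and 0.804 to 1.78 and 7.88 CPM (adjusted p = 0.0345), a call lost without 6-thio-dG replicate 2 (0.0822). The part of other cells in the rises of TREM2, LYZ and LUM was not tested.

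**Figure D4:**
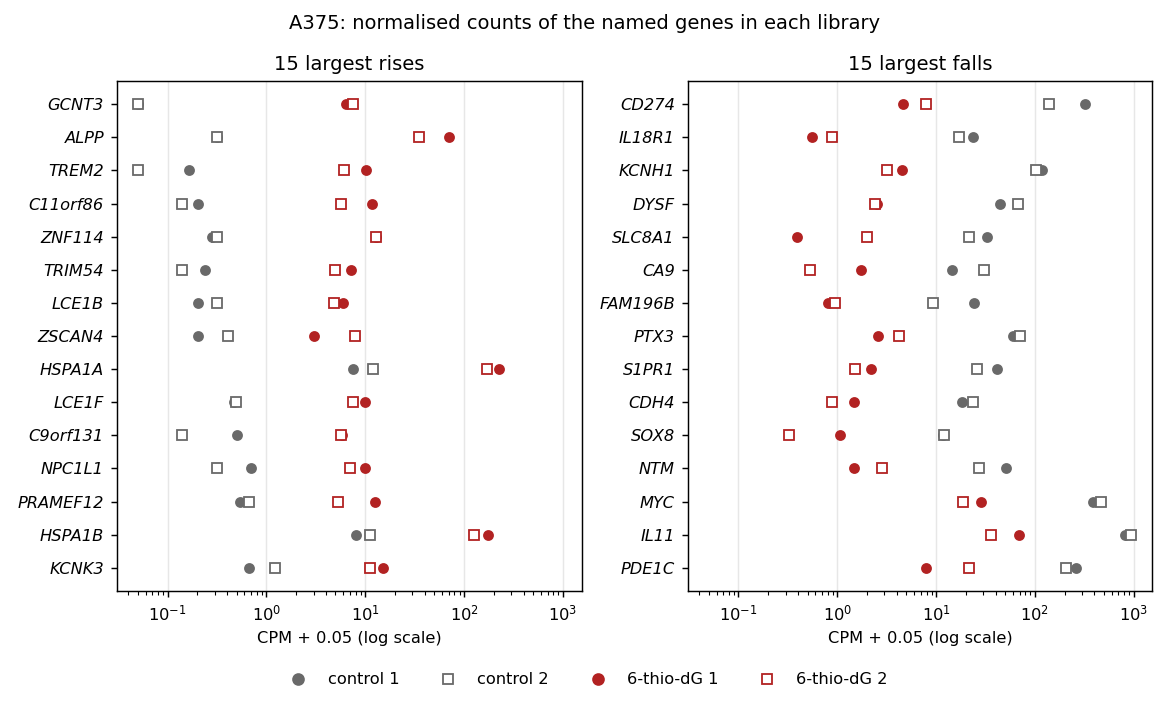
CPM + 0.05 on a log axis in each of the 4 libraries for the 15 largest rises (left) and the 15 largest falls (right) among called genes outside the cell cycle lists, with controls in grey and 6-thio-dG in red, replicate 1 filled and replicate 2 open. In every row the red and grey pairs are apart, as the naming rule requires. ALPP lies at 70.7 and 34.9 CPM against 0.268, and CD274 at 4.58 and 7.88 CPM against 324 and 139.

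The largest falls were led by an immune checkpoint gene. CD274, which encodes PD-L1, was at 324 and 139 CPM in control cells and at 4.58 and 7.88 CPM with 6-thio-dG (−5.21 ± 0.58, adjusted p = 0.00217). IL18R1, a receptor chain for interleukin 18, was at 23.5 and 17.1 against 0.509 and 0.830 CPM (−4.90 ± 0.59, adjusted p = 0.00298). The potassium channel gene KCNH1 was at 116 and 101 against 4.50 and 3.11 CPM (−4.84 ± 0.51, adjusted p = 0.00217). DYSF, which acts in membrane repair, was at 43.9 and 67.4 against 2.46 and 2.35 CPM (−4.53 ± 0.53, adjusted p = 0.00261). For each of them both controls lay far above both treated libraries, where the naming rule asks for groups that do not overlap. The calcium exchanger gene SLC8A1 (−4.52 ± 0.72), the hypoxia-induced carbonic anhydrase gene CA9 (−4.38 ± 0.70), the sphingosine phosphate receptor gene S1PR1 (−4.24 ± 0.55) and the cadherin gene CDH4 (−4.21 ± 0.57) followed. Of 14 MHC class I genes and checkpoint ligands 2 fell, and 3 after GC correction, the other being HLA-B at 20.5 and 44.4 against 9.41 and 5.33 CPM (−2.14 ± 0.53, adjusted p = 0.0393), whose reads overlap with those of related HLA genes. HLA-B was not called without 6-thio-dG replicate 1 (0.0552).

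MYC and several cytokine genes fell in both replicates. MYC, the growth regulator, was at 388 and 466 CPM in control cells and at 28.3 and 18.6 CPM with 6-thio-dG (−4.19 ± 0.46, adjusted p = 0.00217). IL11, a cytokine of the IL6 family, was at 805 and 944 against 69.4 and 35.8 CPM (−4.06 ± 0.49, adjusted p = 0.00298). Of 29 tested interleukin, chemokine and colony stimulating factor genes 6 fell, IL11, IL6, IL1A, CXCL8, CSF2 and LIF, and 1 rose, against 7 and 2 after GC correction. IL6 was at 4.24 and 4.73 against 0.509 and 0.622 CPM (−2.96 ± 0.54, adjusted p = 0.0144). The gene that rose was CCL26, a chemokine for eosinophils, at 0.0765 and 0.268 against 5.34 and 4.29 CPM (5.01 ± 0.67, adjusted p = 0.0044). PTX3, a secreted pattern recognition protein, was at 59.4 and 70.7 against 2.54 and 4.15 CPM (−4.27 ± 0.47, adjusted p = 0.00217). Among 17 NF-kappaB genes, of which 3 fell and 1 rose after GC correction, 1 fell, the feedback gene TNFAIP3 at 69.4 and 43.1 against 17.5 and 19.2 CPM (adjusted p = 0.0488), a call lost with upper-quartile scaling (0.0822) and without 6-thio-dG replicate 1 (0.118). Among 33 interferon-stimulated genes, of which 5 rose after GC correction, 1 rose, IFI6 at 8.15 and 14.3 against 53.9 and 34 CPM (adjusted p = 0.039), lost without 6-thio-dG replicate 1 (0.0962).

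Of 25 tested receptor tyrosine kinase genes 4 fell, AXL, EGFR, DDR2 and FLT1, and 0 rose, and after GC correction 8 fell and 2 rose. AXL, a receptor of dedifferentiated melanoma, was at 1432 and 1624 CPM in control cells and at 299 and 212 CPM with 6-thio-dG (−2.58 ± 0.44, adjusted p = 0.0113). EGFR was at 85.9 and 31.6 against 12 and 12.4 CPM (−2.27 ± 0.54, adjusted p = 0.0346), with controls further apart than the treated pair. Of 15 ERK feedback genes 2 fell, DUSP6, an ERK phosphatase, at 277 and 303 against 78.9 and 95.0 CPM (−1.74 ± 0.39, adjusted p = 0.0295), and SPRY2. Neither was called with upper-quartile scaling (adjusted p = 0.0538 and 0.112), and 6 of the list fell after GC correction. Of 18 YAP and TEAD targets 3 fell, and 5 after GC correction. ANKRD1, a standard readout of YAP, was at 169 and 169 against 12.2 and 29.9 CPM (adjusted p = 0.011), the kinase gene NUAK2 at 90.6 and 80.0 against 17.7 and 9.82 CPM (−2.63 ± 0.47, adjusted p = 0.014), and CYR61, a matrix protein gene, at 591 and 604 against 193 and 123 CPM (−1.92 ± 0.42, adjusted p = 0.0268). Among 17 Notch genes 1 fell, with a list median of 0.25, at 0.52 and −0.09 in the replicates, and 2 fell after GC correction. That gene, the Notch target HES4, was at 32.9 and 34.1 against 5.17 and 1.24 CPM (−3.39 ± 0.64, adjusted p = 0.0172). Of 25 AP-1, EGR and other immediate early genes 2 fell and 0 rose, and 8 fell after GC correction. JUN and FOSL1, subunits of AP-1, were those that fell (adjusted p = 0.0366 and 0.0416), and both calls were lost without 6-thio-dG replicate 1 (0.0867 and 0.0739) or replicate 2 (0.0579 and 0.0862). Without 6-thio-dG replicate 1 the calls of EGFR (0.0861), DUSP6 (0.121), SPRY2 (0.096) and CYR61 (0.0622) were lost too, and SPRY2 was also lost without 6-thio-dG replicate 2 (0.0689).

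Adhesion and matrix families differed in direction. Of 73 tested cadherin and protocadherin genes 1 rose and 2 fell, with a median of 0.37 and 52 of 73 above 0, and 14 rose and 3 fell after GC correction. Of 18 integrin genes 4 fell and 0 rose, with a median of −1.24. ITGB4, the laminin-binding chain of hemidesmosomes, was at 47.2 and 62.1 CPM in control cells and at 10.7 and 6.50 CPM with 6-thio-dG (−2.67 ± 0.48, adjusted p = 0.0144). Its partner gene ITGA6 was at 243 and 166 against 16.7 and 51.9 CPM (−2.57 ± 0.55, adjusted p = 0.0255). ITGA3 and ITGB3 were the others, and 8 members fell after GC correction. Of 32 collagen genes 6 fell and 2 rose, and after GC correction 12 fell and 2 rose. COL6A3 was at 68.3 and 50.0 against 9.16 and 5.33 CPM (−3.03 ± 0.46, adjusted p = 0.00761), and the basement membrane collagen gene COL4A2 at 363 and 536 against 79.0 and 43.5 CPM (−2.88 ± 0.47, adjusted p = 0.0095). COL17A1, a transmembrane collagen of hemidesmosomes, rose from 4.09 and 3.13 to 32.6 and 24.2 CPM (2.97 ± 0.49, adjusted p = 0.0108). So within the hemidesmosome genes ITGB4 and COL17A1 went opposite ways. The guidance genes had 5 of 55 lower (12 lower and 3 higher after GC correction), with NRP1, a semaphorin and VEGF coreceptor, at 143 and 71.0 against 12.2 and 20.6 CPM (−2.70 ± 0.50, adjusted p = 0.0148), and 1 higher, NTN1, which encodes netrin 1, at 2.18 and 1.61 against 16.5 and 7.26 CPM (adjusted p = 0.024). Of 36 actin, contractile and focal adhesion genes 4 fell, and 11 fell and 2 rose after GC correction. TPM1, which encodes a tropomyosin, was at 163 and 199 against 38.6 and 46.9 CPM (−2.08 ± 0.40, adjusted p = 0.0185). Without 6-thio-dG replicate 1 the calls of ITGA6 (0.0749), ITGA3 (0.0702), NRP1 (0.0587), NTN1 (0.0531) and TPM1 (0.0665) were lost, and ITGA3 also without 6-thio-dG replicate 2 (0.0577).

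Potassium channel genes moved both ways. Of 40 tested 6 rose, among them KCNK3, KCNK7, KCNS1 and KCND1, and 3 fell, KCNH1, KCNT2 and KCNG1, with 6 and 4 after GC correction. These 4 rises were at low levels, with KCND1 the highest of them in the treated libraries at 19.9 and 12.2 CPM. Among keratin genes 4 of 21 fell and 1 rose, and after GC correction 4 fell and 2 rose. The list median was −0.02, at 0.40 and −0.18 in the replicates. The gene that rose was KRT12, a keratin of the cornea, with no count in either control and 0.763 and 0.553 CPM with 6-thio-dG, at least 8.06-fold higher when 3 counts are set over both controls (adjusted p = 0.0226, and 0.079 without 6-thio-dG replicate 1). KRT80 was at 1849 and 3285 against 594 and 387 CPM (−2.39 ± 0.48, adjusted p = 0.0204). KRT81 was at 1297 and 3115 against 393 and 312 CPM (−2.64 ± 0.51, adjusted p = 0.0186), and its near-identical neighbours KRT83 and KRT86, which share reads with it, were the other falls. The calls of KRT80 (0.0667) and KRT81 (0.0778) were lost without 6-thio-dG replicate 1.

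Genes of cell death split within the BCL2 family, with 1 of 18 members higher and 3 lower, and 2 and 4 after GC correction. BMF, a death-promoting BH3 protein gene, rose from 2.68 and 3.04 to 28.3 and 18.1 CPM (3.02 ± 0.51, adjusted p = 0.0113). MCL1, a survival gene, was at 1971 and 1176 against 233 and 447 CPM (−2.21 ± 0.49, adjusted p = 0.0274), and the BH3 genes HRK (−2.95 ± 0.59, adjusted p = 0.0204) and PMAIP1, which encodes NOXA (−2.28 ± 0.59, adjusted p = 0.0475), also fell. Among 25 p53 targets outside the cell cycle 1 rose, the inositol phosphatase gene INPP5D, and 1 fell, PMAIP1. After GC correction 8 rose and 3 fell, and with upper-quartile factors 4 rose and 1 fell. CDKN1A, which encodes p21, was at 183 and 345 against 960 and 590 CPM, apart in both replicates but not called (1.55 ± 0.46, adjusted p = 0.0726). It was called after GC correction (0.0192). The calls of MCL1 (0.151) and PMAIP1 (0.108) were lost without 6-thio-dG replicate 1.

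The telomere and pigment lists had 1 of 16 and 2 of 12 tested genes called, against 2.45% higher and 2.8% lower over the symbol-named genes. Of 16 telomerase and shelterin genes 1 fell, as after GC correction, DKC1, which encodes the dyskerin that binds telomerase RNA, at 540 and 567 against 164 and 202 CPM (−1.60 ± 0.40, adjusted p = 0.0403). It was not called with upper-quartile scaling (0.0912) or without 6-thio-dG replicate 1 (0.161). TERT, the catalytic subunit gene, was at 9.68 and 3.84 against 4.83 and 1.66 CPM, with overlapping groups (adjusted p = 0.307). MITF, the master regulator of melanocytes, was at 46.6 and 34 against 2.97 and 14.6 CPM (−2.19 ± 0.67, adjusted p = 0.0778) and was called after GC correction (0.03). PMEL, a melanosome gene, rose from 0.382 and 0.446 to 2.21 and 2.01 CPM (adjusted p = 0.0333), and OCA2, a melanosomal channel gene, fell from 4.70 and 8.57 to 1.61 and 1.59 CPM (adjusted p = 0.0438). They were the only called genes of 12 tested pigment and melanoma markers, of which 1 rose and 2 fell after GC correction. Both were lost without 6-thio-dG replicate 1 (0.0733 and 0.094). Circadian genes had 3 of 17 lower (4 lower and 1 higher after GC correction), with NR1D1, a clock repressor, at 266 and 168 against 67.6 and 32.6 CPM (−2.11 ± 0.47, adjusted p = 0.0274).

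Housekeeping systems are given beside the background of 2.45% higher and 2.8% lower over the symbol-named genes. The proteasome's share was near it, and differences between the systems were not tested. The proteasome had 1 of 38 genes higher, also after GC correction, the catalytic subunit gene PSMB6 at 60.6 and 106 against 409 and 288 CPM (2.07 ± 0.44, adjusted p = 0.0245). Complex I, the mitochondrial ribosome, cholesterol synthesis and glycolysis had 0 calls by edgeR among 31, 72, 22 and 23 tested genes. At an unadjusted p under 0.05 these systems had 3, 10, 1 and 6 genes, DESeq2 called 2, 2, 0 and 1, and the test after GC correction 2, 1, 1 and 2. The nucleoporins had 2 of 20 lower and 1 higher (4 and 1 after GC correction), with medians of −1.49 in replicate 1 and −0.62 in replicate 2. PSMB6 was not called without 6-thio-dG replicate 1 (0.0868).

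A test of the difference asked which of these responses differed from that of LOX-IMVI BR to the same dose. It used all 12 libraries, whose shared spread (25.8%) is smaller than that of the A375 libraries (36.1%), so its p-values are too small for A375. Of 29114 genes 1612 differed (5.54%), 891 with a more positive response in A375. C11orf86 rose in A375 and fell in LOX-IMVI BR, where it was at 0.755 and 0.914 CPM in control cells and at 0.0406 and 0.0348 CPM with 6-thio-dG. TREM2, in contrast, was at 0 and 0.0457 CPM in the LOX-IMVI BR controls and at 1.38 and 1.57 CPM with 6-thio-dG, and its response was not shown to differ between the lines (difference 0.94 ± 2.29, adjusted p = 0.894). CD274 was at 27.7 and 25.0 against 11.8 and 11.8 CPM in LOX-IMVI BR, a smaller fall than in A375 (difference −4.06 ± 0.57, adjusted p = 0.000916). BIBR1532 in A375 uses the same controls: CD274 was at 40.1 and 52.1 CPM and MYC at 92.5 and 89.6 CPM with it. Other named genes moved about as far or further with BIBR1532 than with 6-thio-dG. KCNH1 was at 3.95 and 4.72 CPM, LCE1F at 55.0 and 46.5, PRAMEF12 at 46.5 and 44.6, and ZSCAN4 at 12.4 and 16.0. The changes of KCNH1, LCE1F, PRAMEF12 and ZSCAN4 were thus not particular to 6-thio-dG. Among others the same held for LCE1B, CDH4, AKR1B10, COL17A1, NTN1, PMEL, INPP5D and IFI6, all called with BIBR1532 by edgeR. GCNT3, TREM2, KCNK3, CD274 and MYC changed less with BIBR1532 but were called there too. Others, such as HSPA1A, HSPA8, ALPP and IL11, were not called with BIBR1532. IL6, which fell with 6-thio-dG, was above both controls with BIBR1532, at 54.3 and 52.8 CPM.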

How the data were processed

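Raw gene counts of all 12 libraries were deposited in 1 table. STAR, Picard, GATK, featureCounts 1.5.1, hg19 and GRCh37 are named, without roles, in the submitters' processing notes. Libraries were unstranded per the labels' protocols, so overlapping antisense genes cannot be separated, and near-identical copies share reads. Of 75253 rows 54072 carry NONCODE identifiers of long noncoding genes and 21177 gene symbols. In 4 rows 2 date-like names were ambiguous and were dropped (at most 0.000913% of a library's counts), and 24 others stayed in the tests without being named. No coordinates were taken for genes.

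The test was edgeR 4.0.16 (R 4.3.3, limma 3.58.1): filterByExpr, TMM, 1 mean per group, robust quasi-likelihood on the 6 A375 libraries (3 residual degrees of freedom), Benjamini-Hochberg over all genes, threshold 0.05. DESeq2 1.42.0 and other settings were alternatives. GC content came from GENCODE transcripts, for 20567 symbol rows (97.1%), and its trend was removed per library by a smooth curve. Single-library log2 differences used CPM with a pseudocount of 0.5. Totals ranged from 11813388 to 25822381 counts in the A375 libraries. Intervals and limits cover counting error only.

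Genes named were, outside 3 cell cycle lists, the 15 largest rises and 15 largest falls among called genes whose groups did not overlap and whose higher mean reached 5 CPM, up to 3 called members of each list by adjusted p, and 15 followed genes (such as TERT, CDKN1A and MITF). The text gives a selection, and lists whose members were called are given with all such members or a count. Some genes are not reported here. Where a group had no count, folds were taken against 3 counts. The members, lists and tests were chosen with earlier results of these data known. The labels do not say whether the replicate numbers pair the libraries, and the main test used no pairing. The correlation of same-numbered deviations was −0.08 between control and 6-thio-dG, −0.18 between control and BIBR1532 and 0.45 between the compounds. With 2 libraries a group these correlations cannot settle whether libraries were paired. Scripts were tested on simulated data. Figures used matplotlib 3.10.9.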

Additional observations from a re-analysis of the deposited data

Results flagged for a closer look

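For 7 of the 10 symbol-named genes tested, the 5 largest rises and the 5 largest falls chosen by the naming rule in A375, the response to 6-thio-dG differed between A375 and LOX-IMVI BR in edgeR's quasi-likelihood test of the difference over 12 libraries, whose shared spread is too small for A375. The differences of log2 fold change, A375 minus LOX-IMVI BR, were 10.21 for C11orf86 (adjusted p = 4.91e-05), 5.33 for ZNF114 (adjusted p = 0.000102), −4.06 for CD274 (adjusted p = 0.000916), −3.51 for IL18R1 (adjusted p = 0.000916), −6.20 for KCNH1 (adjusted p = 0.000916), −5.72 for DYSF (adjusted p = 0.00014) and −2.28 for SLC8A1 (adjusted p = 0.0477). KCNH1 was between 0.0457 and 0.162 CPM in all LOX-IMVI BR libraries compared, so its difference rests on the fall in A375. These 10 genes were chosen by their A375 responses, which also enter the difference tested, so a high share was built in. The share over all 29114 genes was 5.54%, and 7 of 10 does not measure how often the lines differ. GCNT3, ALPP and TREM2 were not shown to differ. GCNT3 had no count in the LOX-IMVI BR libraries compared (SE of the difference 12631.5). ALPP was at most 0.0696 CPM there, so neither difference was well measured. Groups of 2 libraries do not allow a test for a single library that stands apart.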

How the results depend on the processing

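The 741 rises became 2485 with upper-quartile factors, 2871 with all 12 libraries, 402 with symbol-named genes alone and 399 with those that have a GC value. The 486 falls became 936 with the DESeq2 test, 1650 with no low-count filter, 2390 with all 12 libraries, 224 with symbol-named genes alone and also 224 with those that have a GC value, 991 with GC correction and 923 with GC correction and the replicate block. The replicate block gave 1229 and 1079 calls, but the labels give only a shared number and state no pairing. Leaving out each library gave 0 to 1934 rises and 0 to 3244 falls: 278 and 186 without 6-thio-dG replicate 1, 1934 and 3244 without 6-thio-dG replicate 2, and 0 without either control, with smallest adjusted p of 0.0931 and 0.0869. DESeq2, added after seeing the data, called 427 rises and 667 falls without control replicate 1, and 333 and 452 without control replicate 2. The cause of these changes was not tested. The 1612 differences between lines became 1560 with upper-quartile factors and 2047 with DESeq2.

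Of the 128 called named genes 0 reversed in any setting run. Calls were lost by 0 with DESeq2, 1 with its size factors, 7 with upper-quartile factors, 6 of 125 with at least 1 CPM in 2 libraries, 2 of 127 with GC correction, 21 of 126 with only the 4 libraries, 21 with symbol-named genes alone, 60 without 6-thio-dG replicate 1 and 11 without replicate 2. The 2 lost to GC correction were EIF4E3 (adjusted p = 0.136) and TGFB2 (0.0841). Those lost in edgeR's test on only the 4 libraries, where the shared spread was larger, included HSPA5 (adjusted p = 0.0997) and XBP1 (0.0756). DUSP6 (0.0668), SPRY2 (0.11), DKC1 (0.112), TNFAIP3 (0.158) and IFI6 (0.0991) were lost there too. With 2 libraries a group, the test reached few genes changed 4-fold or less on simulated counts.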

Other observations

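Long noncoding genes, listed by NONCODE identifier and not named further, took 6.21% and 4.42% of counts in the controls and 6.78% and 7.30% with 6-thio-dG. Of 10431 tested, 408 rose and 105 fell, against 3.08% and 2.02% of all genes tested. The largest rise was NONHSAG026072, at 0.153 and 0.179 CPM in control cells and at 177 and 132 CPM with 6-thio-dG (log2 fold change 9.83 ± 0.65, adjusted p = 6.33e-05 in edgeR's quasi-likelihood test). NONHSAG026068 followed, at 0.115 and 0.0893 against 59.8 and 47.7 CPM (8.89 ± 0.69). The largest fall was NONHSAG017641, at 92.1 and 26.8 against 1.87 and 2.42 CPM (−4.79 ± 0.65, adjusted p = 0.00479), next to NONHSAG017640 in size, at 27.2 and 10.3 against 0.933 and 0.830 CPM. All of these were taken from called genes whose groups did not overlap and whose higher mean reached 5 CPM. Their separation thus follows from the choice.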
